A study of Mus musculus with 12 samples.

Results

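Granule cell marker genes were described in the cerebellar cortex of wild-type (WT) male mice on 3 diets, from RNA sequencing of 12 mice aged 12 weeks. The markers were 10 genes chosen by name, Neurod1, Etv1, Cbln3, Zic1, Zic2, Pax6, Fat2, Calb2, Slc17a7 and Rbfox3, out of 54752 genes in the count table. Each name matched 1 gene. All mice were F1 hybrid C57BL6J/FVB animals without a transgene, and the libraries came from 4 mice on each diet. AL mice ate ad libitum. DR mice were under dietary restriction, which was introduced in steps before the tissue was taken, and they did not get their last meal. KD mice received a ketogenic diet, whose composition and duration are not given in the sources used here. The AL and DR libraries came from the mice with the best RNA quality. Each library came from a piece of cortex with folia of hemisphere, paravermis and vermis but without cerebellar nuclei, so it held RNA of granule cells together with RNA of Purkinje cells, interneurons and glia.

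Granule cells are the small excitatory neurons of the inner layer of the cerebellar cortex and by far its most numerous neurons. They receive mossy fibre input and send parallel fibres into the molecular layer, where these release glutamate onto Purkinje cells and interneurons. The markers cover several sides of this cell. Neurod1, Etv1, Zic1, Zic2 and Pax6 encode transcription factors, Cbln3, Fat2 and Slc17a7 encode proteins of parallel fibres and their synapses, Calb2 encodes the calcium buffer calretinin, and Rbfox3 encodes the splicing regulator known as NeuN.

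Between DR and AL 0 of 10 markers passed the test, where 3.06% of all genes did, and between KD and AL 0 of 10 passed, where 0% of all genes did, so these counts are near the background. Between KD and DR, where 4.94% of all genes passed, Cbln3 was lower and Fat2 was higher in KD mice, with log2 fold changes of -0.21 and 0.20, and the other 8 markers did not pass. Summed over the markers, the counts made up 0.629% to 0.684% of each library.

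Libraries held between 31712084 and 40798644 counted reads, with a median of 36674269, and each marker had between 6248 and 66714 counts in a library. If reads are taken as independent, which PCR copies are not, the counting error at these counts was between 0.387% and 1.27%, below the coefficient of variation of a marker among mice on one diet, which was 1.98% to 10.2%. Counts of mice fed alike disagreed beyond sampling noise in each of 18 pairs, with a chi-square of 4.6 to 10.5 for each gene, so no pair looked like a library deposited again. Mitochondrial genes took 3.6% to 4.22% of the counts.

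The tissue carried the granule cell markers at high levels. Levels of different genes were compared as CPM (library-scaled counts) per kilobase of exon, and ranked among 19557 genes that passed a filter on low counts. Cbln3, a cerebellin that reaches the cell surface only in complex with Cbln1, had the highest level of the markers, with 323 ± 28.4 CPM per kilobase (SD, n = 12), which ranked it 53. Neurod1, a basic helix-loop-helix factor needed for granule cell differentiation, had 184 ± 7.28 CPM per kilobase (SD, n = 12) and rank 119. Zic1, a zinc finger factor of the granule cell lineage, had 177 ± 8.04 CPM per kilobase (SD, n = 12) and rank 123. Calb2 followed with 155 ± 10.8 CPM per kilobase (SD, n = 12) and rank 148. These 4 genes stood above the other markers.

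The next group lay close together. Rbfox3 had 90.0 ± 3.87 CPM per kilobase (SD, n = 12), and Slc17a7, the vesicular glutamate transporter VGLUT1 of parallel fibres, had 85.8 ± 5.16 (SD, n = 12). Zic2, the close relative of Zic1, had 75.4 ± 3.40 CPM per kilobase (SD, n = 12), and Fat2, a very large atypical cadherin of parallel fibres, had 73.6 ± 6.25 (SD, n = 12). Their ranks ran from 331 for Rbfox3 to 445 for Fat2. Etv1, an Ets family factor of maturing granule cells, had 54.9 ± 1.97 CPM per kilobase (SD, n = 12) and rank 675. Pax6, a paired-box factor kept on from the progenitor stage, was the lowest marker with 16.8 ± 0.474 (SD, n = 12) and rank 3012.

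Over the 12 mice the ranges of neighbouring genes in this order were apart for Cbln3 and Neurod1, for Calb2 and Rbfox3, for Fat2 and Etv1, and for Etv1 and Pax6. They were not apart for the other 5 neighbouring pairs. Neurod1 was above Zic1 in 10 of 12 libraries, Zic1 above Calb2 in 11, Rbfox3 above Slc17a7 in 9 and Zic2 above Fat2 in 8. Slc17a7 was above Zic2 in 12 of 12 libraries although their ranges overlapped. The length used is that of all exons of a gene together, and the annotation lists 26 transcripts for Pax6 and 13 for Etv1 against 1 for Neurod1, so the levels per kilobase of genes with many transcripts depend on that length. Genes with few transcripts can depend on it too. Cbln3, with 2 transcripts, was counted over 4866 exonic bases in a gene that spans 5.48 kilobases.

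The position of each marker in GRCm38.p6 was taken from the count table. Cbln3 (ENSMUSG00000040380.14) lies on the minus strand at chr14:55878913-55884392, and Zic2 (ENSMUSG00000061524.8) lies on the plus strand of the same chromosome at chr14:122475435-122479852. Neurod1 (ENSMUSG00000034701.9) lies on the minus strand at chr2:79452521-79456751 and Pax6 (ENSMUSG00000027168.21) on the plus strand at chr2:105668900-105697364. Fat2 (ENSMUSG00000055333.14) lies on the minus strand at chr11:55250609-55336564 and Rbfox3 (ENSMUSG00000025576.17) on the minus strand at chr11:118489762-118911597. Among the remaining genes, Zic1 (ENSMUSG00000032368.14) is on the minus strand at chr9:91358058-91365810 and Calb2 (ENSMUSG00000003657.9) on the minus strand at chr8:110137502-110168210. Slc17a7 (ENSMUSG00000070570.5) is on the plus strand at chr7:45163949-45176142 and Etv1 (ENSMUSG00000004151.17) on the plus strand at chr12:38779380-38870484.

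Exons of 8 markers overlapped no exon of another gene. Of the exonic bases of Neurod1, 13.0% were shared, 7.37% with Cerkl on the same strand (mean 14.2 CPM) and 5.64% with Gm26755 on the opposite strand (mean 2.13 CPM), against a mean of 501 CPM for Neurod1, and its counts are uncertain to that extent. Zic1 shared 1.05% of its exonic bases with Zic4 on the opposite strand, and both genes are neighbours that overlap at their starts. Zic2 and Zic5 lie on opposite strands, 9757 bases apart.

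Promoter windows of RefSeq (GRCm38.p6), with 250 bases before and 50 after the annotated start, were listed for 8 of the 10 markers, 10 windows in all, because Etv1 and Pax6 have a pair each. No window was listed for Zic2 or Calb2. The windows of Cbln3 and Neurod1 are printed because these genes had the highest levels per kilobase of the markers, and because Neurod1 encodes a factor of the class that binds E-boxes. Capitals mark each E-box, the letters CANNTG, which read the same on both strands. The Cbln3 window lies on the minus strand at chr14:55884207-55884506, and the Neurod1 window on the minus strand at chr2:79456587-79456886.
Cbln3: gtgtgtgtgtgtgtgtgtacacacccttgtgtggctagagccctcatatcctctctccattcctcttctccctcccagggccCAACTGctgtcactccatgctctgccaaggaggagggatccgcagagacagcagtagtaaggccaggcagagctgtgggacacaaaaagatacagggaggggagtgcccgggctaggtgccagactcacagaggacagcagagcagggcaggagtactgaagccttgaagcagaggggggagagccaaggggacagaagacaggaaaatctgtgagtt
Neurod1: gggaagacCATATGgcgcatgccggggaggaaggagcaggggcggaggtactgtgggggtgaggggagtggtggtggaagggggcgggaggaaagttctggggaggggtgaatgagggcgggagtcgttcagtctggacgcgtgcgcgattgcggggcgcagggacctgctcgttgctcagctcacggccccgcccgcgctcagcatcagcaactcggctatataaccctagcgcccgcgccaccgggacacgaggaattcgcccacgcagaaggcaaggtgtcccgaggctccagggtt
Each holds 1 E-box, CAACTG in Cbln3 and CATATG in Neurod1. Among the 10 windows 8 held an E-box, as did 72.3% of the 32851 promoters in the RefSeq table, so the motif is common. CAGATG or its reverse complement, a form of E-box favoured by NeuroD factors, was found in 1 window, that of the inner start of Etv1, against 17.2% of all promoters. CAGCAGG or its reverse complement, the core of the site that Zic factors bind, was found in 1 window, that of Fat2, against 10.5% of all promoters. The RefSeq start of Fat2 lies 24307 bases inside the gene as counted, and that of Rbfox3 150556 bases inside, so neither window borders the outer start of its gene in the count table and neither is printed.

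In some of their families the markers stood well above their relatives. Of the Zic genes described here, Zic1 and Zic2 were the most abundant, and Zic5 and Zic4 had means of 17.3 and 7.05 CPM per kilobase. Neurod2 had 32.5 CPM per kilobase, against 184 for Neurod1, and Neurod6 and Neurod4 were lower. Cbln1, the partner of Cbln3, had 213 CPM per kilobase, while Cbln2 and Cbln4 had 0.0275 and 0.0344. Cerebellins thus came almost entirely from a pair of genes. Fat1 had 26.0 CPM per kilobase, Fat3 2.12 and Fat4 0.248, all below Fat2. Of the Ets factors of the Pea3 group, Etv5 had 25.4 and Etv4 had 4.82 CPM per kilobase, below Etv1.

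Levels within the remaining families were compared in the same way. Rbfox1 (75.3 CPM per kilobase) and Rbfox2 (53.8) were close to Rbfox3 (90.0). Slc17a7 was nearly alone among the vesicular glutamate transporters, since Slc17a6 (VGLUT2) had 0.0475 CPM per kilobase and Slc17a8 (VGLUT3) ranged over 0.0654 to 0.162. Calb2 lay between Calb1 (104), the calbindin of Purkinje cells, and Pvalb (540), the parvalbumin of Purkinje cells and interneurons. Gabra6, the GABA-A receptor subunit typical of granule cells, had 354 CPM per kilobase, close to Cbln3, and is named as a reference level. Apart from Cbln3 and Fat2, no gene of these families that is named here and had enough counts to be tested passed in a comparison of diets. Of the 15 genes of the granule cell lineage and its progenitors, 3 were barely detected, Atoh1 (mean 0.00697 CPM), Nhlh1 (0.0240) and Insm1 (0.0904). Others were detected at higher levels, such as Barhl1 (13.3 CPM) and Cntn2 (584 CPM), the highest of that list. These lineage genes were named after their values were seen.

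**Figure D1:**
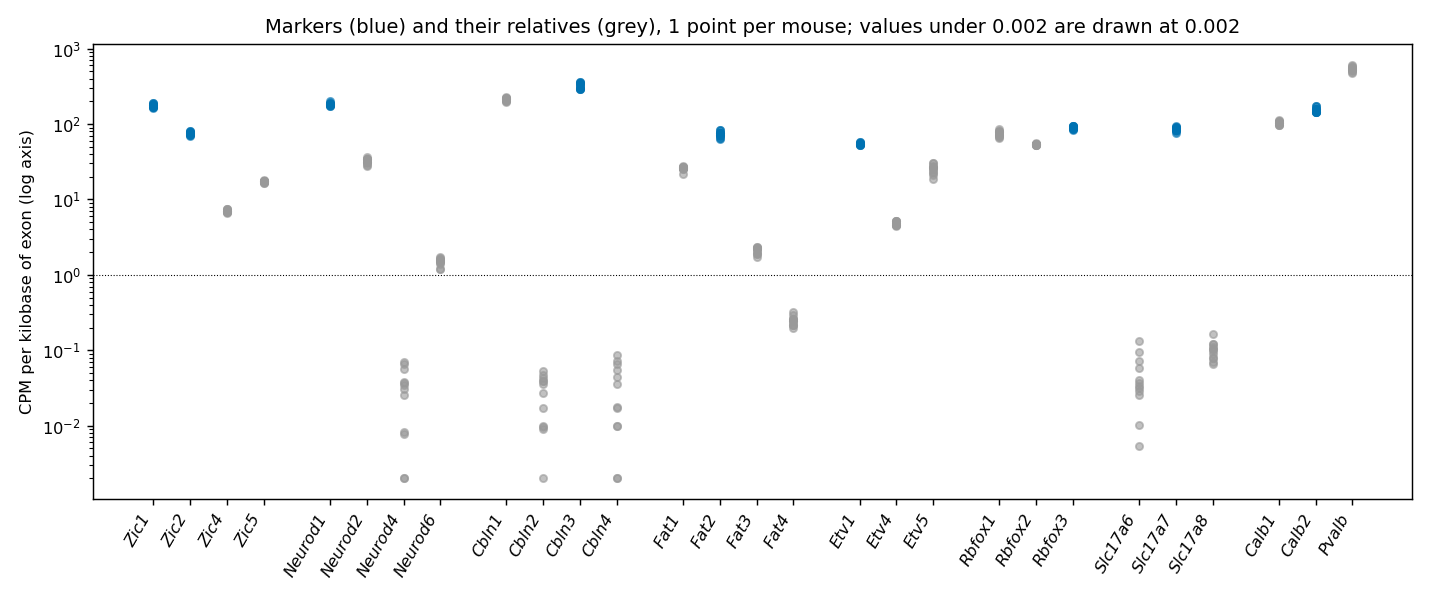
Levels of the markers (blue) and the family relatives described (grey) in CPM per kilobase of exon on a log axis, with 1 point for each of the 12 mice. Cbln3 and Cbln1 stand orders of magnitude above Cbln2 and Cbln4, and Slc17a7 above Slc17a6 and Slc17a8, whereas the Rbfox genes lie close together, with means of 53.8 to 90.0.

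Markers differed in how closely the mice agreed. The spread among mice on one diet was taken as the pooled SD of log2 CPM, with a median of 0.0536 over the markers and 0.0638 over the 2383 genes of at least 100 CPM. Pax6 varied least, with an SD of 0.0434. Calb2 varied most, with 0.108, followed by Cbln3 with 0.0945, Fat2 with 0.0880 and Slc17a7 with 0.0733, and these 4 lay above the median of genes of at least 100 CPM. The transcription factors lay below it. AL mouse 3 had the highest AL value for 6 of the 10 markers and AL mouse 2 the lowest for 6. DR mouse 1 and KD mouse 1 each had the lowest value of their diet for 6 markers.

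**Figure D2:**
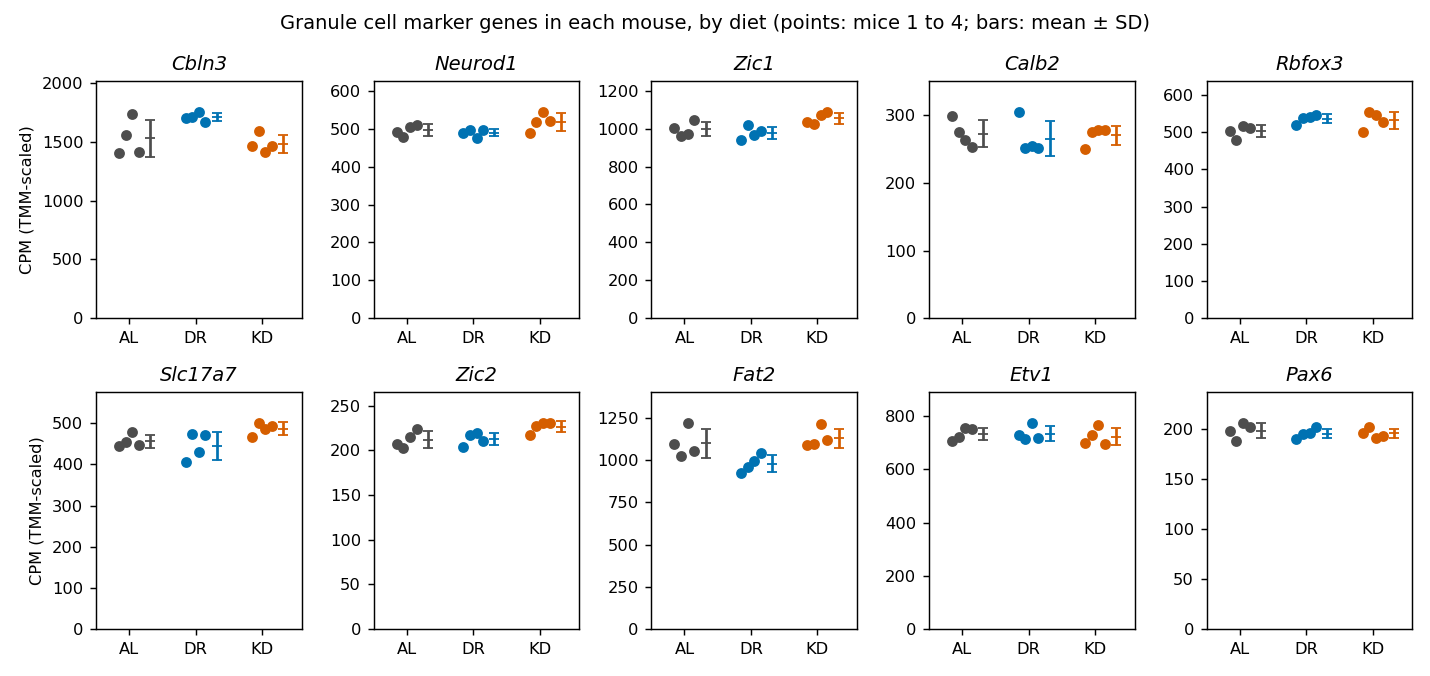
CPM of each marker in each mouse on AL (grey), DR (blue) and KD (orange), with the mean ± SD (n = 4) beside the points and axes starting at 0. DR mice lie above KD mice for Cbln3 and below them for Fat2, while the diets overlap for most other markers.

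The comparison of DR with AL asked how dietary restriction affected gene expression in the cerebellar cortex. No marker passed the test (0 of 10), and the values of both diets did not overlap for 1 marker, Rbfox3. Of all 19052 genes tested, 3.06% passed the edgeR quasi-likelihood test at an adjusted p of 0.05 (Benjamini-Hochberg), 252 higher and 331 lower on DR, and 10.9% had values that did not overlap. The median log2 fold change of the markers was -0.02, with a range from -0.17 to 0.16, beside a median of 0.00 over all genes. In such bulk tissue, fewer cells of a type and less RNA per cell cannot be told apart. With 4 mice a diet, p-values weigh the difference between diets against the spread between these mice, which the fit estimates partly from all genes.

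Cbln3 had 1408, 1554, 1739.9 and 1417 CPM in AL mice 1 to 4 and 1704, 1709, 1753 and 1671 CPM in DR mice 1 to 4. The DR values lay close together and above 3 of the 4 AL values, but AL mouse 3 was within the DR range. The log2 fold change was 0.16 ± 0.06 (SE, n = 4 per diet), with a 95% interval of 0.03 to 0.29, and edgeR gave an adjusted p of 0.18. Without AL mouse 3 it was 0.23, with an adjusted p of 0.0203 by edgeR. Leaving out any other mouse instead gave 0.125 to 0.175, with an adjusted p of at least 0.208 by edgeR, and Cbln3 did not pass. Cbln1, which forms a complex with Cbln3, gave 0.07 (95% interval -0.03 to 0.17, adjusted p = 0.488 by edgeR).

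Fat2 differed the other way. It had 1092, 1025, 1222 and 1056 CPM in AL mice and 922, 957, 994 and 1042 CPM in DR mice, so that 3 DR mice were below all AL mice and DR mouse 4 was within their range. The log2 fold change was -0.17 ± 0.06 (SE, n = 4 per diet), with a 95% interval of -0.29 to -0.04 and an adjusted p of 0.144 by edgeR. The fits of Fat1, Fat3 and Fat4 gave -0.11, -0.13 and -0.35, and none of the 4 Fat genes passed. When all genes were tested without the filter on low counts, Cbln3 (adjusted p = 0.0351, edgeR) and Fat2 (adjusted p = 0.0177, edgeR) passed at log2 fold changes of 0.16 and -0.17. That fit called 1258 genes, against 583 in the main fit. Neither marker passed in the other alternatives that used all mice. Among these, DESeq2 gave adjusted p of 0.123 for Cbln3 and 0.0676 for Fat2, and library size alone gave 0.120 and 0.175 (edgeR).

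Rbfox3 had 503, 479, 517 and 512 CPM in AL mice and 520.2, 539, 541 and 546 CPM in DR mice. Every DR value lay above every AL value, by a narrow margin. The log2 fold change was 0.09 ± 0.04 (SE, n = 4 per diet), with a 95% interval of 0.00 to 0.18 and an adjusted p of 0.256 by edgeR. Slc17a7 had 446, 455, 478 and 446 CPM in AL mice and 405, 473, 429.9 and 471 CPM in DR mice, of which 2 were below all AL mice and 2 were within their range. Its log2 fold change was -0.04 (95% interval -0.15 to 0.08). Calb2 had 299, 275, 264 and 254 CPM in AL mice and 305, 252, 254 and 251 CPM in DR mice, where DR mouse 1 stood above the other 3 DR mice. Its log2 fold change was -0.04 (95% interval -0.18 to 0.10), the widest interval of the markers.

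The transcription factors of the granule cell were within the spread between mice. Neurod1 had 490.5, 478, 506 and 511 CPM in AL mice and 489, 497, 476 and 497 CPM in DR mice, with a log2 fold change of -0.02 (95% interval -0.11 to 0.07). Etv1 ranged over 705 to 755 CPM in AL mice and 715 to 776 CPM in DR mice, with 0.00 (95% interval -0.09 to 0.10). The DR range of each of these genes overlapped the AL range. Zic1 ranged over 963 to 1045 CPM in AL mice and 939.5 to 1017 CPM in DR mice, with -0.03 (95% interval -0.12 to 0.07). Zic2 gave 0.00 (95% interval -0.09 to 0.10) and Pax6 gave -0.02 (95% interval -0.11 to 0.07). For 8 of the 10 markers, all except Cbln3 and Fat2, the interval lay within 0.25 of no change on the log2 scale.

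In the comparison of KD with AL, which the deposited libraries allow, no marker passed (0 of 10), and no marker had values that did not overlap. The same fit called 0 of 19036 genes, a share of 0%, although 928 genes (4.87%) had an unadjusted p under 0.05 and DESeq2 called 9. Values did not overlap for 2.95% of genes. This comparison used the same AL mice as that of DR with AL. The median log2 fold change of the markers was 0.05, with a range from -0.05 to 0.10. All 10 intervals lay within 0.25 of no change.

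The markers with the largest differences from AL were Zic2, Slc17a7, Rbfox3 and Zic1. Zic2, a zinc finger factor, had 207, 202, 215 and 224 CPM in AL mice and 217, 227, 230.0 and 231 CPM in KD mice, with a log2 fold change of 0.10 ± 0.04 (SE, n = 4 per diet) and an edgeR adjusted p of 0.981. Slc17a7 had 467, 501, 486 and 494 CPM in KD mice, 3 of which were above all AL mice, with a log2 fold change of 0.10 ± 0.04 (SE, n = 4 per diet) and an edgeR adjusted p of 0.981. Rbfox3 gave 0.08 (95% interval 0.00 to 0.17) and Zic1 gave 0.08 (95% interval 0.00 to 0.16). Cbln3 (-0.05, 95% interval -0.17 to 0.08) and Fat2 (0.04, 95% interval -0.07 to 0.15) lay closer to AL. The remaining markers, Neurod1 (0.06), Etv1 (-0.02), Pax6 (-0.02) and Calb2 (-0.01), also had overlapping values.

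The direct comparison of KD with DR used the same KD and DR mice as the comparisons with AL. It called 2 of the 10 markers, 1 higher and 1 lower on KD, and the values of both diets did not overlap for 3 markers, Cbln3, Fat2 and Zic1. Among the 19087 genes tested, 4.94% passed, 463 higher and 479 lower on KD, and 11.8% had values that did not overlap. The median log2 fold change of the markers was 0.05, with 7 above 0 and 3 below, beside 0.00 over all genes.

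Cbln3 was lower in KD than in DR mice. Against AL its log2 fold change was 0.16 in DR mice and -0.05 in KD mice, and neither passed. It had 1460.0, 1589.9, 1409 and 1464 CPM in KD mice 1 to 4, all below the DR mice, whose lowest value was 1671 CPM. The log2 fold change was -0.21 ± 0.05 (SE, n = 4 per diet), with a 95% interval of -0.30 to -0.11 and an edgeR adjusted p of 0.0145. Leaving out 1 mouse at a time gave -0.24 to -0.18. The call was lost without DR mouse 3 (adjusted p = 0.054, edgeR), KD mouse 1 (adjusted p = 0.0585, edgeR) or KD mouse 3 (adjusted p = 0.0656, edgeR). Cbln1 gave 0.01 (95% interval -0.08 to 0.10) in the same comparison.

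Fat2 was higher in KD than in DR mice. Against AL its log2 fold change was -0.17 in DR mice and 0.04 in KD mice, and neither passed. It had 1091, 1093, 1213 and 1117 CPM in KD mice, all above the DR mice, whose highest value was 1042 CPM. The log2 fold change was 0.20 ± 0.05 (SE, n = 4 per diet), with a 95% interval of 0.10 to 0.31 and an edgeR adjusted p of 0.0257. Leaving out 1 mouse at a time gave 0.17 to 0.24. The call was lost without DR mouse 2 (adjusted p = 0.0597, edgeR), DR mouse 3 (adjusted p = 0.0563, edgeR), KD mouse 3 (adjusted p = 0.0991, edgeR) or KD mouse 4 (adjusted p = 0.0552, edgeR).

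Of the markers that did not pass, Zic1 came closest by its values. It had 1034, 1023, 1072 and 1088 CPM in KD mice against 939.5, 1017, 967 and 985 CPM in DR mice, without overlap, and a log2 fold change of 0.11 ± 0.04 (SE, n = 4 per diet) with an edgeR adjusted p of 0.169. DESeq2 gave 0.11 with an adjusted p of 0.0464. Slc17a7 gave 0.13 (95% interval 0.02 to 0.24) and Zic2 gave 0.09 (95% interval 0.00 to 0.18), with edgeR adjusted p of 0.175 and 0.258. Neurod1, with 488, 518, 545 and 521 CPM in KD mice, gave 0.08 (95% interval -0.01 to 0.17). Calb2 (0.03, 95% interval -0.10 to 0.16), Etv1 (-0.02, 95% interval -0.12 to 0.07), Rbfox3 (-0.01, 95% interval -0.10 to 0.08) and Pax6 (0.00, 95% interval -0.08 to 0.08) had overlapping values, and those of Pax6 ranged over 190.3 to 202 CPM in DR mice and 192 to 202 CPM in KD mice.

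**Figure D3:**
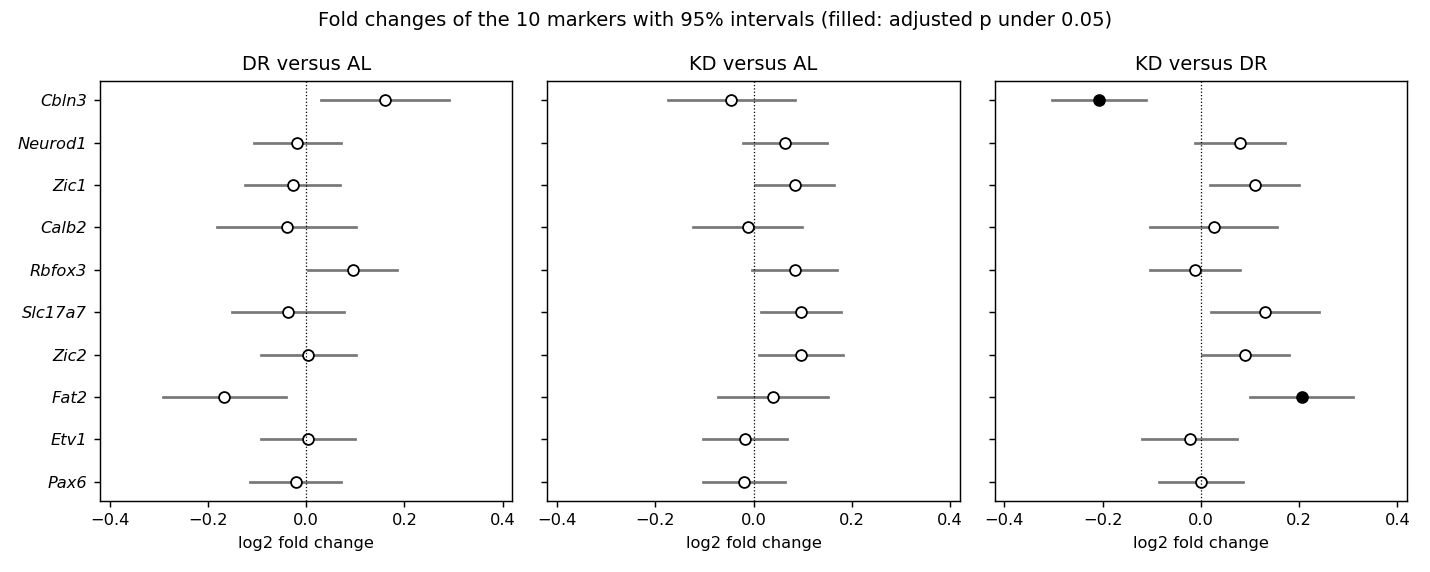
Log2 fold change of each marker in the 3 comparisons of diets, with 95% intervals and filled points for an adjusted p under 0.05 (edgeR). The filled points are Cbln3 at -0.21 and Fat2 at 0.20 in KD versus DR, and all intervals of KD versus AL lie within 0.25 of 0.

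Cbln3 and Fat2 are both genes of parallel fibres, and their levels differed in opposite directions, so their counts were also set against each other within each library, which is independent of library size. This ratio was chosen after the values were seen and was not tested. The ratio of Cbln3 to Fat2 counts was 1.29 to 1.52 in AL mice, 1.603 to 1.848 in DR mice and 1.16 to 1.46 in KD mice. The DR mice lay above all AL and KD mice, and the AL and KD ranges overlapped. Against the summed counts of the other 8 markers, Cbln3 amounted to 43.0% to 45.4% in DR mice, 35.9% to 44.5% in AL mice and 34.2% to 39.5% in KD mice. Fat2 amounted to 24.4% to 26.9% in DR mice, 26.8% to 31.2% in AL mice and 27.1% to 29.5% in KD mice. The other 8 markers together had 3761 to 3945 CPM in AL mice, 3783 to 3905 in DR mice and 3856 to 4115 in KD mice, which overlap.

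**Figure D4:**
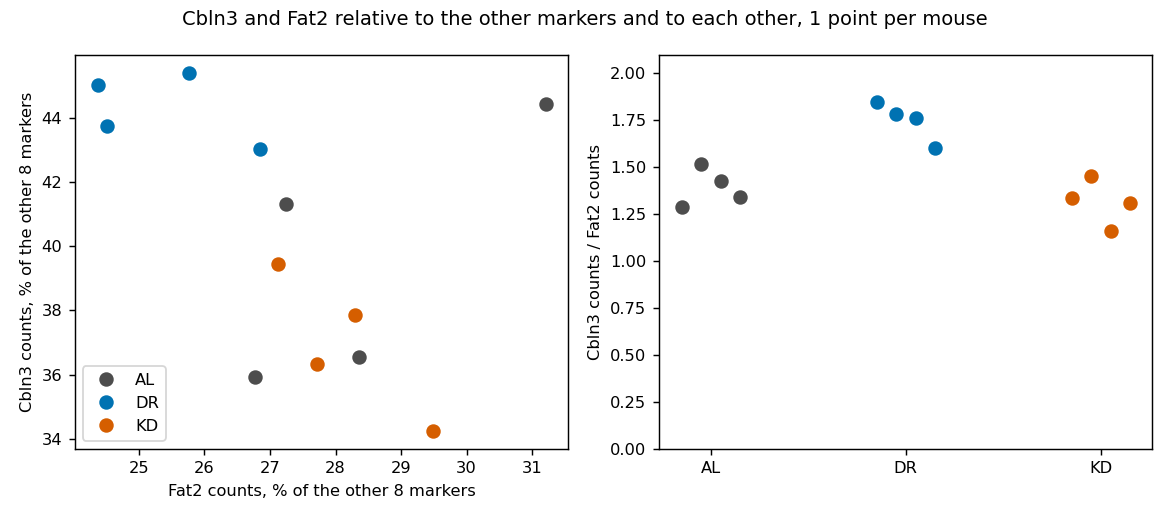
Left, Cbln3 against Fat2 counts in each mouse, both as a percentage of the summed counts of the other 8 markers. Right, the ratio of Cbln3 to Fat2 counts by diet, on an axis from 0, with DR mice at 1.603 to 1.848 and all AL and KD mice at 1.52 or below.

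Other genes of mature granule cells were taken from a list of 15, among them receptor subunits, channels and presynaptic proteins. None of the 15 passed between DR and AL (median log2 fold change 0.02) or between KD and AL (median 0.03). Between KD and DR, 1 was higher and 1 was lower on KD. Unc13c, a presynaptic vesicle priming protein of granule cells, gave 0.18 on the log2 scale (adjusted p = 0.0238, edgeR). Chn2, a chimaerin that inactivates the small GTPase Rac, had -0.24 (adjusted p = 0.0129, edgeR), with 492, 498, 495 and 442 CPM in DR mice and 386, 435, 394 and 419 CPM in KD mice. The median of the list was 0.01. Of 15 genes of the granule cell lineage and its progenitors, 12 could be tested, and none passed in any comparison, with medians of -0.10, 0.03 and 0.06 in DR versus AL, KD versus AL and KD versus DR.

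Lists of markers of other cell types held genes that passed on DR in the same libraries, and their part in the values of the granule cell markers was not tested. Of 10 Purkinje cell markers, 2 fell between AL and DR, among them Car8 (-0.25, adjusted p = 0.0327, edgeR), a partner of the inositol trisphosphate receptor. The median of that list was -0.16, with 9 of 10 values below 0. The summed level of that list, in which the most abundant genes weigh most, was 8357 to 8899 CPM in AL mice. It was 7006 to 8088 in DR mice and 8226 to 8467 in KD mice, so the DR mice were lowest. Whether the granule cell and Purkinje cell lists differ in their response was not tested.

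Of 8 markers of Bergmann glia and astrocytes, 3 fell between AL and DR, the water channel Aqp4 (-0.52, adjusted p = 0.000706, edgeR), Hopx (-0.47, adjusted p = 0.00143, edgeR) and the gap junction gene Gja1 (-0.24, adjusted p = 0.0124, edgeR), with a median of -0.16. Their summed level was 2292 to 2470 CPM in AL mice, 2000.0 to 2131 in DR mice and 2229 to 2331 in KD mice. The 9 oligodendrocyte markers had a median of -0.09, with 1 that fell, and summed levels of 2344 to 2960 CPM in AL mice, 2190 to 2711 in DR mice and 2569 to 2785 in KD mice. Of 10 markers of molecular layer interneurons and Golgi cells 1 rose, Lgi2 (0.37, adjusted p = 0.000507, edgeR), a secreted leucine-rich repeat protein, with a median of -0.01.

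Unipolar brush cells, which are excitatory interneurons of the same layer, also carry Calb2. Of their 7 markers 1 fell between AL and DR, and the median log2 fold change was -0.10. Summed levels were 953 to 980 CPM in AL mice, 833 to 939.5 in DR mice and 951 to 971 in KD mice. No marker of microglia (6 genes), endothelium (5 genes) or choroid plexus (3 of 5 genes tested) passed between DR and AL. Between KD and AL 0 of 19036 genes passed, so none of the lists of cell types could hold a gene that did.

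In KD versus DR, 2 of 10 Purkinje cell markers were higher on KD, among them Car8 (0.24, adjusted p = 0.0164, edgeR), with a list median of 0.09. The same lists held Aqp4 (0.45, adjusted p = 0.00131, edgeR) and Hopx (0.30, adjusted p = 0.00316, edgeR) of 8 Bergmann glia and astrocyte markers, both higher on KD, with a median of 0.13. Of 9 oligodendrocyte markers 2 were higher on KD, among them the myelin gene Mag (0.24, adjusted p = 0.0211, edgeR), and of 7 unipolar brush cell markers 1 was higher. Lgi2 was lower (-0.28, adjusted p = 0.00244, edgeR). The choroid plexus gene Ttr was higher on KD (2.16, adjusted p = 0.0332, edgeR), with 7.95, 0.371, 2.13 and 3.19 CPM in KD mice and 0.655 to 0.817 CPM in DR mice, so that KD mouse 1 was highest and KD mouse 2 was below the DR mice. No marker of microglia or endothelium passed.

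**Figure D5:**
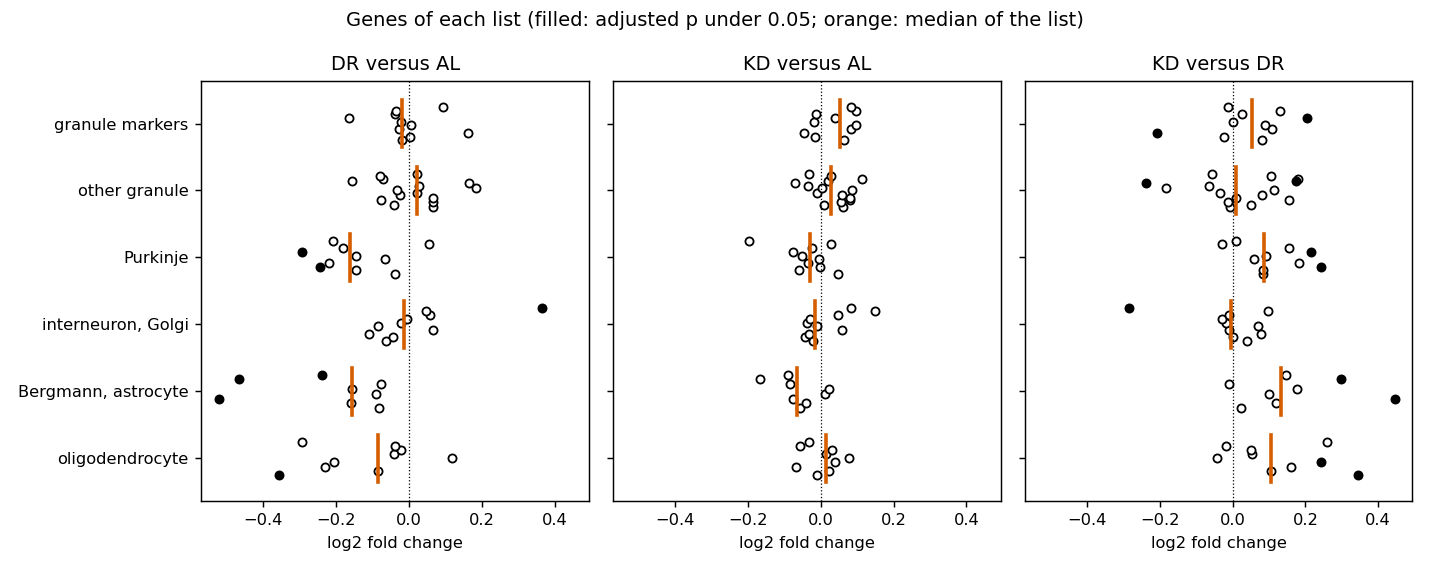
Log2 fold change of each gene of 6 lists of cell type markers in the 3 comparisons, with filled points for an adjusted p under 0.05 (edgeR) and orange bars for the median of each list, on one scale. In DR versus AL the granule cell markers have a median of -0.02 and no filled point, and the Purkinje cell markers a median of -0.16 and 2 filled points.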

How the data were processed

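Poly(A) RNA of cerebellar cortex from 12 mice was sequenced, 4 on each diet. The authors trimmed reads with Trimmomatic 0.39, aligned them with STAR 2.7.0f to GRCm38.p6 and deposited read counts per gene from featureCounts of Subread 1.6.4 with GENCODE annotation. No source used here says whether strand was used in counting. Groups were taken from the sample labels, and mice were numbered in the order of their records, which pairs nothing.

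For each pair of diets, genes were filtered with filterByExpr at a minimum count of 10 and a minimum total of 15, TMM factors were computed, and tests were run in edgeR 4.0.16 (R 4.3.3) with the quasi-likelihood test on 8 libraries, without covariates. P-values were adjusted over all genes tested by Benjamini-Hochberg at 0.05. Standard errors were derived from the fold change and F statistic. CPM used TMM factors (0.991 to 1.02) over all 12 libraries. DESeq2 1.42.0, other filters, library size alone and leaving out each mouse were tried as alternatives. The fit was tested on simulated counts. Gene symbols were matched for 54723 genes, and transcripts and overlaps were taken from a later GENCODE release of the same assembly.

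The markers and lists were chosen with earlier results of these data known. All markers were described, and other genes were named if they passed the test (at most 4 for each list and comparison) or were relatives of a marker. Outside this rule, Gabra6 and 5 lineage genes were named after their values were seen. Some genes that met the rule are not reported here.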

Additional observations from a re-analysis of the deposited data

Results flagged for a closer look

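In 33 groups of 4 mice (10 markers and the total counts of the library, on 3 diets), a value far from the other 3 was looked for by the gap to its neighbour over the whole range (Dixon's 95% limit for 4 values), and chance gives such a value in about 1 in 20 groups. It was found in 2 groups, both for Calb2. DR mouse 1 had 304.8 CPM of Calb2, against 251 to 254 CPM in the other DR mice (a gap of 0.943 of the range). KD mouse 1 had 249.8 CPM, against 274 to 279 CPM in the other KD mice (a gap of 0.848 of the range). These values lie on opposite sides of their groups. DR mouse 1 was also the lowest DR mouse for 6 of the 10 markers and KD mouse 1 the lowest KD mouse for 6.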

How the results depend on the processing

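Without the filter on low counts, 1258 genes passed in DR versus AL, 118 in KD versus AL and 1503 in KD versus DR, and 2 markers passed in DR versus AL. DESeq2 called 985 genes in DR versus AL, 9 in KD versus AL and 1289 in KD versus DR, where it called 3 markers, Cbln3, Fat2 and Zic1. In KD versus DR, Cbln3 and Fat2 passed in each alternative that used all mice. Their highest adjusted p there was 0.0441, for Cbln3 with all 12 libraries in 1 edgeR fit. Leaving out 1 mouse at a time gave 235 to 712 genes and 0 to 1 markers in DR versus AL, 0 to 6 genes and 0 markers in KD versus AL, and 467 to 946 genes and 0 to 2 markers in KD versus DR, where fewer mice were tested. Both markers lost the call in KD versus DR without DR mouse 3 and without KD mouse 3, and the cause was not tested. Signs changed only for log2 fold changes near 0 that did not pass. With library size alone Neurod1 in DR versus AL was 0.002679, and Pax6 in KD versus DR was -0.019773, or -0.006454 with genes above a mean of 10 CPM. Without 1 mouse, DR versus AL ranged from -0.0244 to 0.0195 for Etv1, -0.0177 to 0.0304 for Zic2, -0.110 to 0.0124 for Calb2 and -0.0677 to 0.00981 for Slc17a7. KD versus AL ranged from -0.0845 to 0.0233 for Cbln3, -0.0467 to 0.00113 for Pax6 and -0.0460 to 0.0344 for Calb2. KD versus DR ranged from -0.0517 to 0.00490 for Etv1, -0.0145 to 0.0152 for Pax6, -0.000526 to 0.09996 for Calb2 and -0.0318 to 0.0157 for Rbfox3. Of the other marker values that used all mice, 174 kept their direction and side of the threshold and 3 passed in addition. No paired analysis was possible because the labels give no replicate numbers. The effect of depth was not tested by thinning the counts.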
